A study of Mus musculus with 3 samples.

Results

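The genes described here encode the proteins of the mitochondrial ribosome, and the question was where RARα and RXRα were bound around their starts in mouse liver. Members were the protein-coding genes of the GENCODE release M1 annotation (NCBI37/mm9 genome) whose symbols begin with Mrpl or Mrps and a number. There were 77 such genes of 22367 protein-coding genes in all, 47 of the large subunit (Mrpl) and 30 of the small subunit (Mrps). One of the 30, Mrps36-ps1, has the symbol of a pseudogene but is typed as protein-coding in this annotation, so it was kept and is named where it matters. The tissue was liver of C57BL/6 males, wild type and 3 months old, with no treatment given in the labels. Its chromatin yielded 3 libraries, 1 precipitated with an anti-RXRα antibody, 1 precipitated with the anti-RARα antibody sc-551x from Santa Cruz, and 1 of input chromatin that was not precipitated. With 1 library per antibody there was no replicate, so no p-value is given, and every interval below covers counting error only and treats genes as independent. Binding data hold no expression values, so the levels of these genes and the cell types of the tissue were not checked.

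The mitochondrial ribosome translates the few proteins encoded by mitochondrial DNA, which are core subunits of the respiratory chain and ATP synthase. All of its proteins are encoded in the nucleus, made in the cytosol and imported, and the large subunit joins amino acids while the small subunit decodes the mRNA. RARα is a receptor for retinoic acid that is known to bind DNA with RXRα, at direct repeats of a short half-site. Promoters of genes for mitochondrial proteins are known for sites of NRF1, of the ETS factor GABP and of YY1.

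Of the 143280 RARα peaks in the deposited list, 32946 had a peak score over 20 and are called filtered peaks. An RXRα region was a stretch of 32 bp bins in which RXRα reached 20 times input or more, with input taken as the local signal or, where that was lower, as the genome mean. Both tracks corresponded to about 10 M reads (9.999939 M for RXRα and 9.999292 M for input). This is fewer than the uniquely mapped reads that the paper gives for RXRα, so read counts and their intervals below refer to the tracks. The depth of the RARα library is not in its list, and the paper gives more mapped reads for RARα than for RXRα. RARα and RXRα were called co-localized where a filtered peak overlapped an RXRα region by at least 25% of the narrower of the 2 intervals. Distances are from the gene start to the summit of a peak or the middle of a region, and a negative distance is upstream.

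Short stretches just upstream of the starts are shown first, because 88 of the 153 filtered RARα peaks near members lay within 1 kb of a start. They were picked for holding ETS or NRF1 letters, which 37 of the 77 members had in a wider window, so they are examples and not a sample of the members. Each stretch has 80 bases of NCBI37/mm9 sequence that end at the base before the gene start, read 5′ to 3′ on the strand of the gene. Capitals mark the ETS letters CCGGAAG, or their reverse complement CTTCCGG, and the NRF1 core CGCANGCG or its reverse complement. The first set holds the members with no other gene start within 1 kb, co-localized RARα and RXRα within 1 kb, and such a match wholly inside 80 bases that hold no annotated exon, and all 5 are of the large subunit.
Mrpl17 (chr7:112959614-112959693, minus strand): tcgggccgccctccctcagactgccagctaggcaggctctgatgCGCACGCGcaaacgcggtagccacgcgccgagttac
Mrpl20 (chr4:155177565-155177644, plus strand): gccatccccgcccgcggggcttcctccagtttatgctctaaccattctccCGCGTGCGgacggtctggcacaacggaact
Mrpl22 (chr11:57985083-57985162, plus strand): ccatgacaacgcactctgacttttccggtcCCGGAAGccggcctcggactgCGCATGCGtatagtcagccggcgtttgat
Mrpl34 (chr8:73988745-73988824, plus strand): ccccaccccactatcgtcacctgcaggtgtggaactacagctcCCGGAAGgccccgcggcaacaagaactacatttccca
Mrpl9 (chr3:94247160-94247239, plus strand): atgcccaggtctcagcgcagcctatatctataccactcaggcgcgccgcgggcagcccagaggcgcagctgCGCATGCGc

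The second set holds the members with no other start within 1 kb, a filtered RARα peak within 1 kb, no RXRα region within 10 kb, and a match chosen in the same way. All 5 of these have symbols of the small subunit, and each holds the ETS letters. An ETS or NRF1 match and no other start nearby were conditions of entry, so the sets do not compare the subunits.
Mrps10 (chr17:47505756-47505835, plus strand): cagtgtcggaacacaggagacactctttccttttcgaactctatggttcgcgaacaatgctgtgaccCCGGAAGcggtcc
Mrps16 (chr14:21212778-21212857, minus strand): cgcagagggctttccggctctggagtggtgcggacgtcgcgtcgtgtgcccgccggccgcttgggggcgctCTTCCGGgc
Mrps18a (chr17:46247855-46247934, plus strand): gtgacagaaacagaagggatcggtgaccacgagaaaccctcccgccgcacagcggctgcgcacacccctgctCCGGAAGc
Mrps22 (chr9:98502099-98502178, minus strand): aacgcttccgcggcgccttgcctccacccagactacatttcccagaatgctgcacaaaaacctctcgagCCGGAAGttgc
Mrps35 (chr6:146991206-146991285, plus strand): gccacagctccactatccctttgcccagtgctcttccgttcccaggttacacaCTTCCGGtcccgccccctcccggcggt

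Nearly every member had a filtered RARα peak. Such a peak lay within 10 kb of the start of 72 of 77 members (93.5%, Wilson interval 85.7 to 97.2%), against 52.2% of all protein-coding genes. Within 1 kb the count was 70 of 77 (90.9%, 82.4 to 95.5%), against 40.9% of all genes. The subunits had like shares within 10 kb, with 44 of 47 genes in the large subunit (93.6%) and 28 of 30 in the small subunit (93.3%), a difference of 0.28 percentage points (Newcombe interval -11.5 to 15.5). In total 153 distinct filtered peaks lay within 10 kb of a member, 88 of them within 1 kb. Starts with many CpG dinucleotides often had a RARα peak, and the members' share was higher than that of all such genes. A ratio of observed to predicted CpG of at least 0.6 was found for 65 members. Of these, 63 had a filtered peak within 10 kb (96.9%, 89.5 to 99.2%), against 76.6% of the 10103 genes with such a ratio. The high share was not particular to the members. A filtered peak lay within 10 kb of 96.4% of 83 cytosolic ribosomal protein genes and 92.6% of 94 respiratory chain genes. Within 1 kb these shares were 92.8% and 86.2%.

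The peaks at the starts were of middling score and mostly sat just downstream of the annotated gene start. Over the 70 members with a filtered peak within 1 kb, the strongest such peak had a median score of 51 (range 22 to 208), against 47 over the 9140 genes with such a peak. The median was 51 in each subunit, with a range of 22 to 119 in the large and 23 to 208 in the small subunit. The summit was within 250 bp of the start in 59 of the 70 (84.3%), against 77.1% of the 9140, and downstream of it in 52 (74.3%), against 60.4%. It fell in an annotated UTR in 32, in a coding exon in 14, in another exon in 3, in an intron in 3, and outside the gene in 18. The gene start is the outermost annotated 5′ end, so a summit downstream of it can lie at or before another transcript start. Mrpl39 and Mrpl48, with transcript starts at 512 and 659 bp, had summits at 452 and 586 bp.

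**Figure D1:**
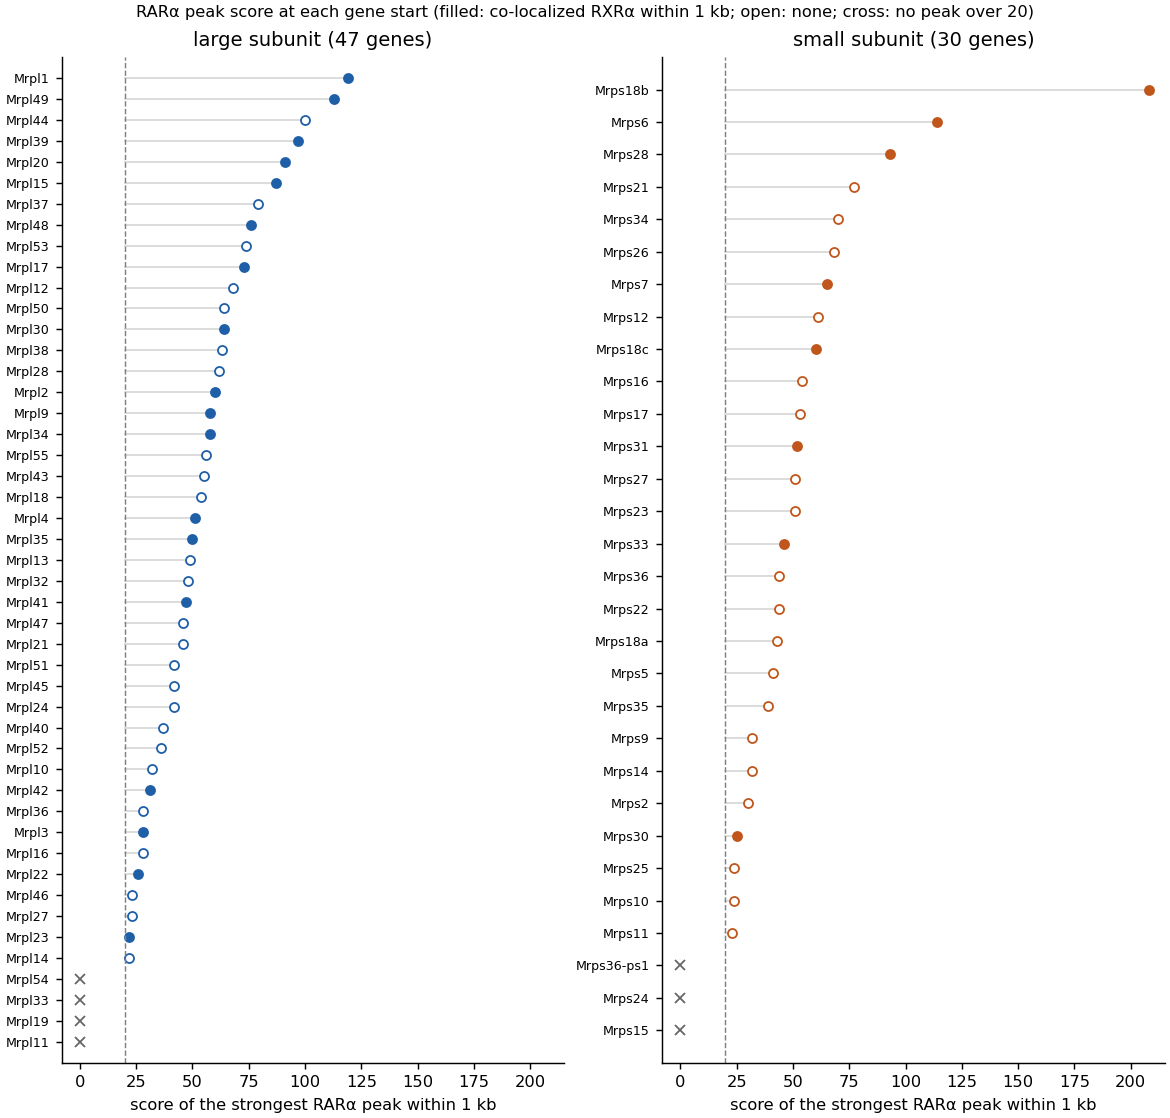
Score of the strongest filtered RARα peak within 1 kb of each gene start (x axis, peak score without a unit), one row per gene. Filled points have co-localized RARα and RXRα at any filtered peak within 1 kb (18 of 47 large and 8 of 30 small subunit genes), and open points do not. The plotted peak itself was co-localized in 17 large and 7 small subunit genes, but not in Mrpl41 or Mrps18b. Crosses are genes with no peak over the dashed line at 20. The scores of the subunits cover nearly the same range apart from Mrps18b at 208.

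In the large subunit, the 6 members with the strongest peak within 10 kb were Mrpl53 (score 130), Mrpl1 (119), Mrpl12 (116), Mrpl49 (113), Mrpl44 (100) and Mrpl54 (100). Mrpl1, whose protein forms the mobile L1 stalk, had its peak at chr5:96638841-96639460. Its summit was 623 bp downstream of the gene start, and another annotated transcript start of Mrpl1 lies at 622 bp. The peak of Mrpl49 was at chr19:6057371-6058201 and that of Mrpl44, a protein near the exit tunnel, was at chr1:79772441-79772901, with summits at 33 and 92 bp. Mrpl44 starts 125 bp from Wdfy1, which is nearer to its summit. For the other 3, the peak also lay nearer to another gene. The peak of Mrpl53 lay at 6366 bp, nearest to Mogs, which encodes a glucosidase of glycoprotein processing, and the peak at its own start had a score of 74. The peak of Mrpl12, a stalk protein that is also known to bind the mitochondrial RNA polymerase, lay at 4898 bp, nearest to Slc25a10, which encodes the dicarboxylate carrier, and its own start had a peak of 68. Mrpl54 had no filtered peak within 1 kb, and its peak at -1326 bp was nearest to Apba3.

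In the small subunit, the strongest peaks within 10 kb belonged to Mrps18b (208), Mrps6 (114), Mrps28 (93), Mrps21 (77), Mrps34 (70), Mrps24 (68) and Mrps26 (68), the last pair tied. Mrps18b, one of 3 members homologous to bacterial S18, had 12 filtered peaks, more than any other member. They ran from -6331 to 6439 bp with scores from 22 to 208. The highest, at chr17:36053721-36054511, had its summit at -621 bp, and 9 of the 12 were nearest to Ppp1r10, which encodes a regulator of protein phosphatase and starts 45 bp away. The 2 peaks nearest to Mrps18b itself scored 46 at 49 bp and 25 at 699 bp. Among the others, Mrps6 starts 52 bp from Slc5a3, Mrps21 starts 3 bp from C920021L13Rik and Mrps34 starts 29 bp from Eme2, so these peaks cannot be given to 1 of the genes. Mrps28 and Mrps26 had no second start within 1 kb. Besides Mrps18b, the members with 4 or more filtered peaks were Mrpl49 and Mrps34 with 5 each, and Mrpl2, Mrpl12, Mrpl18, Mrpl38, Mrpl41 and Mrpl43 with 4 each.

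The members without a filtered RARα peak within 10 kb were Mrpl11, Mrpl19, Mrpl33, Mrps15 and Mrps36-ps1. Mrpl19 had a peak of score 15 at 17 bp, and Mrps15 had one of score 9 at 111 bp, both under the threshold. Mrps36-ps1 had 1 peak, of score 8, at -9514 bp. Mrpl11, a protein of the stalk base, had 0 listed peaks of any score within 10 kb, while its RXRα region lay at -187 bp (chr19:4961985-4962272) with a highest bin of 17 over an input of 0. For Mrpl33 the annotated record begins far from most of its transcripts. Of its 11 transcripts, several begin 17004 bp or more downstream of the gene start, and a peak of score 55 had its summit 3 bp from the transcript start at 31916312 on chromosome 5. Mrps24 showed the same in the small subunit, with its peak of 68 at -10 bp from a transcript start that lies 8038 bp inside the record. Counted from any annotated transcript start, 72 members had a filtered peak within 1 kb, and those without one were Mrpl11, Mrpl19, Mrpl54, Mrps15 and Mrps36-ps1. The members whose strongest peak lay just above the threshold were Mrpl14 and Mrpl23 (22 each) in the large subunit and Mrps10 and Mrps25 (24 each) in the small subunit, and Mrpl19, at 15, was the nearest below it.

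RXRα reads were above input at most of the starts, while fewer members had a called region. An RXRα region lay within 10 kb of 43 of 77 members (55.8%, 44.7 to 66.4%), against 39.8% of all genes, and within 1 kb of 30 (39.0%, 28.8 to 50.1%), against 21.6%. Reads within 500 bp of the start give a value for every member without this threshold. The ratio of RXRα to input reads had a median of 3.44 over the 77 members, against 1.56 over all genes, and of 3.53 in the large and 2.95 in the small subunit. Its exact 95% interval lay above 1 in 64 members (40 large and 24 small) and included 1 in 12. Over all genes the interval lay above 1 in 40.8%. Among genes with a RARα peak within 1 kb, the median ratio was 3.49 over the 70 members and 4.0 over all 9140.

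**Figure D2:**
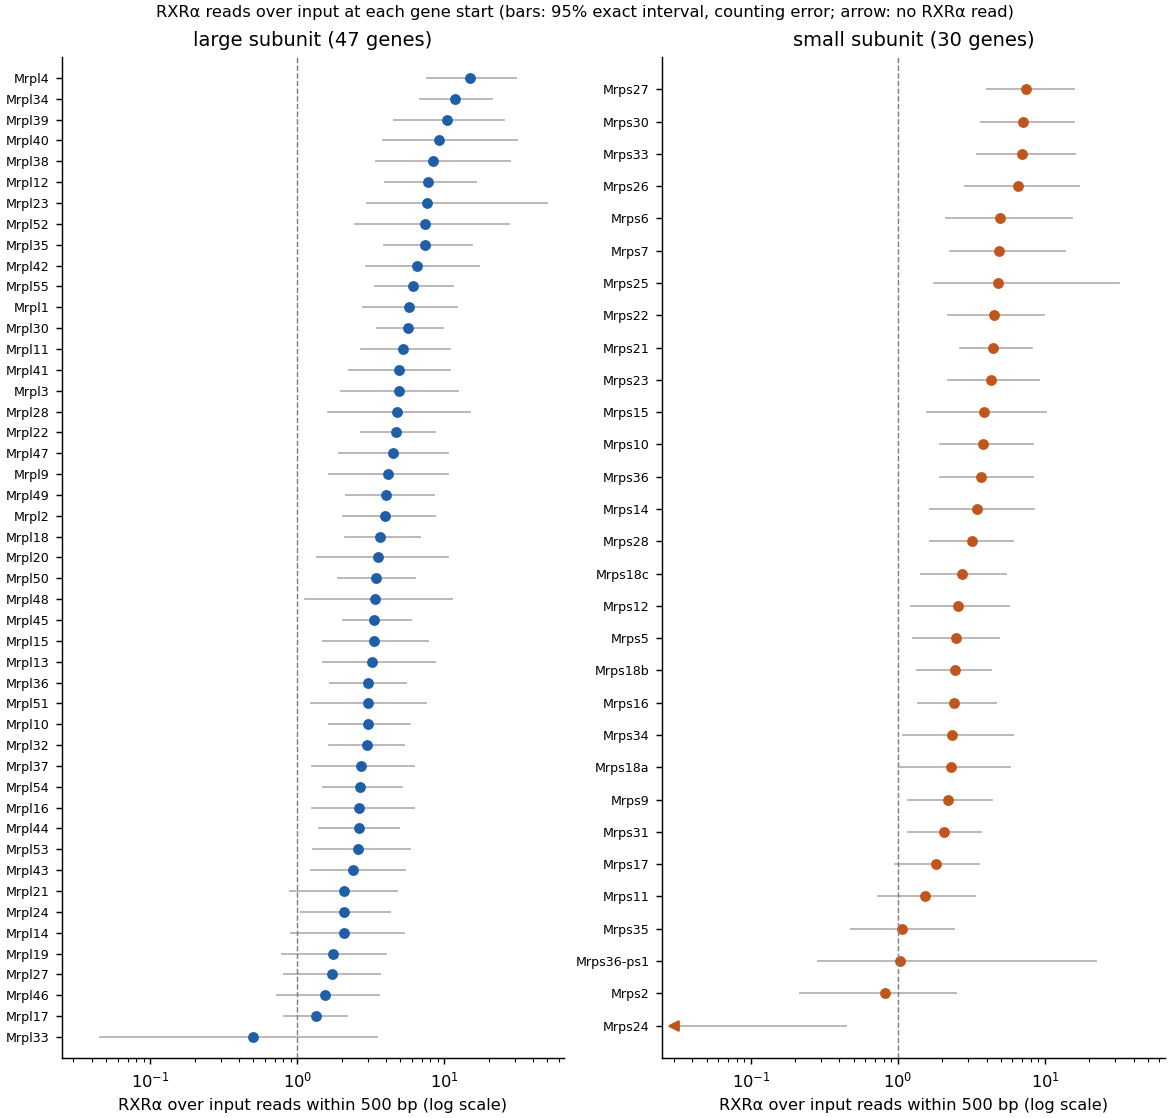
Ratio of RXRα to input reads within 500 bp of each gene start (x axis, log scale, no unit), one row per gene, with the exact 95% interval for counting error as a bar and a dashed line at 1. Mrpl4 is highest at 14.8, the intervals of most neighbours in the order overlap, and Mrps24, with no RXRα read, is drawn as an arrow at the left edge.

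The highest ratios were in the large subunit. Mrpl4 had 145.2 RXRα reads against 9.8 input reads, a ratio of 14.8 (7.66 to 30.9). At Mrpl34, a small protein of the subunit core, 174 RXRα reads stood against 14.8 input reads, a ratio of 11.8 (6.84 to 21.2). Mrpl39 followed with 10.4 (4.54 to 25.4), Mrpl40 with 9.15 and Mrpl38 with 8.35, and the intervals of these 5 overlap. In the small subunit the highest were Mrps27, a pentatricopeptide repeat protein, with 7.45 (4.01 to 15.7), Mrps30 with 7.06 (3.70 to 15.6) and Mrps33 with 7.0 (3.46 to 16.0). At the other end, the record start of Mrps24 had 0 RXRα reads against 10.4 input reads, and Mrpl33 had 2 against 4. Both are the records whose starts lie far from the start used by other transcripts. A ratio of at least 5 was found for 14 of 47 large and 4 of 30 small subunit genes.

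**Figure D3:**
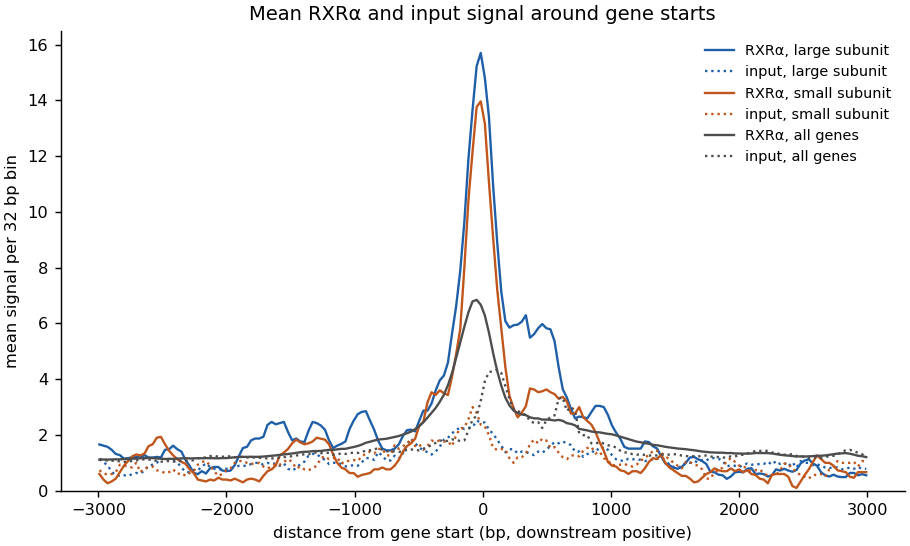
Mean signal per 32 bp bin (y axis) by distance from the gene start in bp (x axis) for RXRα (solid) and input (dotted), over 47 large subunit genes, 30 small subunit genes and 22366 protein-coding genes. RXRα peaks at -16 bp at 15.7 in the large and 14.0 in the small subunit over an input of 2.45 and 2.37, and the input mean over all genes includes 1 start with 97879 reads, which raises it.

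The mean RXRα signal reached its highest bin at -16 bp in both subunits, at 15.7 per bin in the large and 14.0 in the small subunit, over an input of 2.45 and 2.37. Over all genes it reached 6.85, and over the 9140 genes with a RARα peak within 1 kb it reached 13.6, both at -48 bp. Within 500 bp of the start the mean was 7.32 per bin in the large and 5.70 in the small subunit, over an input of 1.75 and 1.80. The RXRα mean there was 3.93 over all genes and 7.63 over genes with a RARα peak within 1 kb. At 4 to 5 kb from the start the RXRα mean was 1.22 in the large and 0.608 in the small subunit, over an input of 0.717 and 0.744. Over all genes it was 1.19 there.

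By the highest bin within 10 kb, the leading large subunit genes were Mrpl12 (124 times input, at 5097 bp), Mrpl48 (99.6 times, at -6517 bp), Mrpl14 (73.0 times, at 7993 bp), Mrpl4 (57.0 times, at 419 bp), Mrpl35 (51.4 times, at 44 bp) and Mrpl43 (51.4 times, at -8476 bp). Thus 4 of the 6 were regions kilobases from the start. The regions of Mrpl12 and Mrpl43 overlapped RARα peaks nearest to Slc25a10 and Lzts2, so they cannot be given to the members alone. The leading small subunit genes were Mrps27 (68.0 times, at -421 bp), Mrps30 (52.0 times, at 27 bp) and Mrps9 (43.1 times, at 9186 bp), followed by Mrps18b at 646 bp, Mrps28 at 78 bp and Mrps33 at 171 bp (39.8 times each). Of these 6, 5 lay within 1 kb. The strongest region lay within 1 kb in 13 of 28 large and 10 of 15 small subunit genes that had one. These folds rest on few input reads, since the highest bin stood over an input of 0 in 49 of the 75 regions, of 1 in 23 and of 2 in 2.

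Of the 77 members, 30 had filtered RARα peaks alone within 10 kb, 10 had both without co-localization, 1 (Mrpl11) had an RXRα region alone and 4 had neither. Co-localized RARα and RXRα were found at 32 of 77 members (41.6%, 31.2 to 52.7%), against 23.5% of all genes, and within 1 kb at 26 (33.8%, 24.2 to 44.9%), against 15.8%. RXRα regions were often a single bin inside a wide peak, and with an overlap of 25% of the wider interval 11 of 77 members were co-localized within 10 kb. Among genes with a RARα peak at the start the shares were close. Of the 70 members with such a peak 37.1% were co-localized within 1 kb (26.8 to 48.9%), and of the 9140 genes with one 38.7%. In the large subunit the 18 genes co-localized within 1 kb were Mrpl1, Mrpl2, Mrpl3, Mrpl4, Mrpl9, Mrpl15, Mrpl17, Mrpl20, Mrpl22, Mrpl23, Mrpl30, Mrpl34, Mrpl35, Mrpl39, Mrpl41, Mrpl42, Mrpl48 and Mrpl49. Many of these have bacterial homologs, among them Mrpl2 and Mrpl3 near the peptidyl transferase centre and Mrpl22 and Mrpl23 around the exit tunnel. Whether such genes were more frequent here than among the other large subunit genes was not tested. In the small subunit the 8 genes were Mrps6, Mrps7, Mrps18b, Mrps18c, Mrps28, Mrps30, Mrps31 and Mrps33. The RXRα enrichment over the RARα peak at the start, with the mean signal of the peak over that of input, ran from 1.32 at Mrpl17 to 20.7 at Mrpl4 among the large subunit genes whose strongest start peak was co-localized. Mrpl4 and Mrpl34 (11.8) thus had high RXRα values with ordinary RARα scores of 51 and 58, while Mrpl44, with a score of 100, had no region, since its best bin of 25 stood over an input of 3. Across the 72 members with a filtered peak, the strongest RARα score and the RXRα ratio at the start had a Spearman rho of 0.12, given as a description, since peaks at neighbouring genes can drive the score.

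The subunits differed in co-localization within 10 kb. It was found at 24 of 47 large subunit genes (51.1%) and at 8 of 30 small subunit genes (26.7%), against 23.5% of all genes. The difference was 24.4 percentage points (Newcombe interval 1.88 to 42.9). Within 1 kb the shares were 38.3% and 26.7%, a difference of 11.6 points whose interval included 0 (-10.1 to 30.6). The gap between these came from 6 large subunit genes co-localized beyond 1 kb alone, Mrpl12, Mrpl36, Mrpl38, Mrpl43, Mrpl45 and Mrpl53, where 7 of the 9 co-localized peaks were nearest to another gene. No small subunit gene was of this kind. Among genes with a RARα peak within 1 kb, co-localization within 10 kb was found at 55.8% of 43 large subunit genes. The share was 29.6% of 27 small subunit genes and 48.5% of all 9140 genes. The difference between the subunits had the opposite sign for genes with both a filtered peak and an RXRα region that did not coincide. These were 3 in the large (Mrpl14, Mrpl18 and Mrpl52) and 7 in the small subunit (Mrps5, Mrps9, Mrps12, Mrps21, Mrps26, Mrps27 and Mrps36), a difference of -17.0 points (-35.0 to -1.16). Their shares were 6.38% of the large and 23.3% of the small subunit, against 9.13% of all genes. Both classes are parts of the genes with an RXRα region, so the 2 differences are not separate results. For an RXRα region within 10 kb the shares were 59.6% and 50%, a difference of 9.57 points whose interval included 0 (-12.5 to 30.7). At a threshold of 10 times input the co-localized shares were 72.3% and 66.7%, and at 5 times input they were 89.4% and 86.7%. With an overlap of 25% of the wider interval they were 17.0% and 10%, a difference of 7.02 points. The symbols do not match the subunits throughout, since structures of the mammalian mitochondrial ribosome place Mrps18a and Mrps30 in the large subunit, and Mrps36 is now known as a part of the oxoglutarate dehydrogenase complex. With Mrps18a and Mrps30 counted in the large subunit the difference was 26.0 points.

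**Figure D4:**
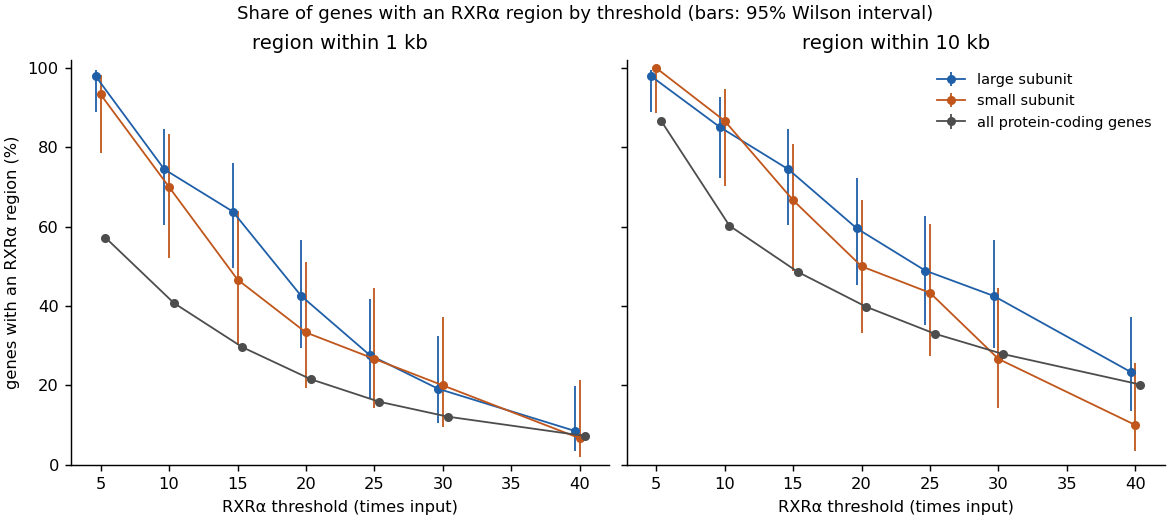
Share of genes with an RXRα region (y axis, %) within 1 kb (left) and 10 kb (right) by the threshold in times input (x axis), for the large subunit, the small subunit and all protein-coding genes, with 95% Wilson intervals as bars. The curves of the subunits have overlapping intervals at each threshold, and at 20 times input and 1 kb they stand at 42.6% and 33.3%, against 21.6% of all genes.

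Many members begin back to back with another gene. Another protein-coding start lay within 1 kb of 29 of 77 members (37.7%), against 12.1% of all genes, and in 28 of the 29 the other gene ran in the opposite direction. This was so for 19 large and 10 small subunit genes, and in 18 of the 29 the starts were at most 200 bp apart. Mrpl46 and Mrps11, both members, start 412 bp apart and share 1 start peak of score 23, a score also found at Mrpl27 and lower only at Mrpl14 and Mrpl23 (22 each). The closest pairs were Mrps21 (3 bp), Mrps18c and Helq (27 bp), Mrps34 (29 bp), Mrps18b (45 bp), Mrps6 (52 bp), Mrpl30 and Mitd1 (66 bp) and Mrpl50 and Zfp189 (83 bp). The widest were Mrpl18 and Tcp1 (644 bp), Mrpl48 and Rab6 (887 bp) and Mrpl41 and Pnpla7 (935 bp). Several partners also serve mitochondria, such as Sars2, the mitochondrial seryl-tRNA synthetase, beside Mrps12, Ndufb5, a subunit of respiratory complex I, beside Mrpl47, Peo1, the mitochondrial DNA helicase, beside Mrpl43, and Ptcd2, a pentatricopeptide repeat protein, beside Mrps27. The strongest peak within 10 kb was nearest to another gene in 19 of 72 members. All 29 members with a partner had a filtered RARα peak, and 43 of the 48 without a partner had one. Partners were not particular to the members. Among 48 gene records of mitochondrial translation under other symbols, 35.4% had a second start within 1 kb. This count includes separate records of Nsun4, 496 bp apart, each taken as the partner of the other. Among 83 cytosolic ribosomal protein genes the share was 15.7%, nearer to the 12.1% of all genes.

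The contrast between the subunits ran in opposite directions in these 2 classes of start, a split looked at after the values were seen. Among members with a start of their own, 19 of 28 large and 4 of 20 small subunit genes were co-localized within 10 kb (67.9% and 20%, a difference of 47.9 points, 19.4 to 66.4). An RXRα region lay within 10 kb of 75% and 35% of them. Among members with a partner, 5 of 19 large and 4 of 10 small subunit genes were co-localized (26.3% and 40%, a difference of -13.7 points, -45.9 to 18.6), and an RXRα region lay within 10 kb of 36.8% and 80%, a difference of -43.2 points (-65.9 to -5.09). These are small classes of 1 library each, and the intervals are not adjusted for the number of splits.

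Promoter windows from 250 bases before to 50 after the start were searched on both strands. The ETS letters CCGGAAG were in 35.1% of the members' windows (27 of 77, 25.3 to 46.2%), against 10.8% of all genes and 20.6% of the 9140 genes with a RARα peak within 1 kb. The share was 27.7% in the large and 46.7% in the small subunit, with intervals that overlap, and 28 of the 31 matches began within 60 bp of the start. The YY1 letters AAGATGGC were in 15.6% (12 of 77), against 3.30% of all genes and 5.11% of those with a RARα peak at the start. These letters contain ATG, and in 4 of the 12, Mrps10, Mrps18a, Mrps18b and Mrps27, they covered the first coding base of the record. The NRF1 core CGCANGCG was in 22.1% (17 of 77), against 10.4% of all genes and 19.9% of those with a RARα peak at the start. It was in 27.7% of the large and 13.3% of the small subunit windows. Related families also had these letters. ETS letters were in 28.9% of cytosolic ribosomal protein windows, 22.9% of those of other mitochondrial translation genes and 21.3% of respiratory chain windows. For the NRF1 core the shares were 16.9%, 22.9% and 27.7%. The SP letters GGGCGG were in 46.8%, against 43.4% of all genes, and within genes with a RARα peak at the start they were rarer in members (48.6%, 37.2 to 60%) than in all (66.3%). The NFY letters CCAAT were in 39.0%, against 37.9%. Co-localization within 1 kb was found in 8 of 27 members with the ETS letters and in 18 of 50 without them. By subunit the order was not the same, with 6 of 13 against 12 of 34 in the large and 2 of 14 against 6 of 16 in the small subunit, and this difference was not tested. It was found in 6 of 17 members with the NRF1 core and in 20 of 60 without it.

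**Figure D5:**
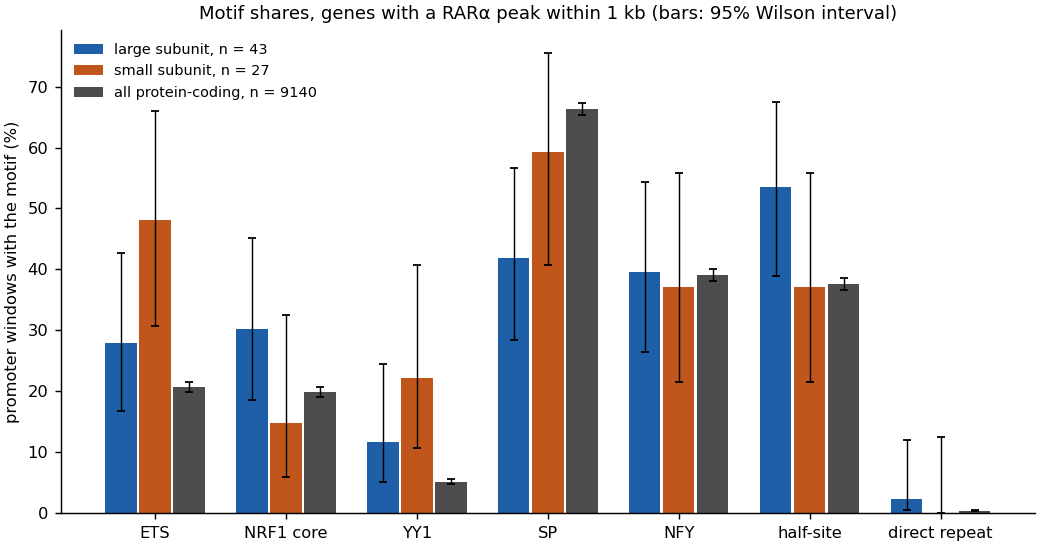
Share of promoter windows with each motif (y axis, %) for 43 large subunit, 27 small subunit and all 9140 protein-coding genes with a filtered RARα peak within 1 kb, with 95% Wilson intervals as thin bars. Among the small subunit genes the ETS share of 48.1% stands above the 20.6% of all such genes, the SP share of the large subunit (41.9%) stands below their 66.3%, and direct repeats are near 0 in every group.

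Direct repeats were next to absent from the starts. Repeats were searched for the half-site AGGTCA and for its variants that read AGTTCA, those that read GGGTCA and those that read GGTTCA. Any 2 of these in the same direction with a spacing of 1 to 5 bases were in 1 of the 77 windows (1.3%), against 0.438% of all genes. It was in Mrpl39, at -209 bp. Mrpl39 had the third highest RXRα ratio and co-localized RARα and RXRα, but the repeat lay outside both its filtered peak and its RXRα region. The summit of that peak was at 452 bp and the region at 323 bp. A single half-site was in 48.1% of the windows, against 41.0% of all genes. Farther from the starts, a repeat lay within 100 bp of the highest bin in 3 of the 75 RXRα regions of members (4%, 1.37 to 11.1%), against 2.60% of the 15094 RXRα regions within 10 kb of any start. All 3 had a spacing of 1 base, and none lay at the start. At RARα summits 1 of 153 peaks had one (0.654%), against 0.508% of 18093 peaks, and it lay in an exon of Ndufs6, a subunit of respiratory complex I, under the peak at -2512 bp from Mrpl36. The repeats are shown because they are the letters RXRα dimers are known to bind. Capitals mark the half-sites, and the sequences are NCBI37/mm9 on the strand given.
Mrpl48, region at -6517 bp, 99.6 times input (chr7:107763284-107763344, plus strand): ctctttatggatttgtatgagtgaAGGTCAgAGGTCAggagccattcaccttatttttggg
Mrpl14, intronic region at 6153 bp, 36.5 times input (chr17:45829267-45829327, plus strand): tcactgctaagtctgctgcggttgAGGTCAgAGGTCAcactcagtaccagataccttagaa
Mrpl53, region at -5697 bp, 22.0 times input (chr6:83053333-83053393, minus strand): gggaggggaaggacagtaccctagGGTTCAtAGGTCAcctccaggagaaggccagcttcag
Mrpl36, RARα peak of score 51 (chr13:73465903-73465915, minus strand): GGGTCAaGGGTCA
Mrpl39, promoter window at -209 bp (chr16:84736183-84736196, minus strand): GGTTCAttGGTTCA
The region of Mrpl48 with this repeat was the second highest of all members, and the middle of its highest bin, with an RXRα signal of 60 over an input of 0, lay 1 bp from the middle of the repeat. This region lay outside Mrpl48, and Rab6 also starts near Mrpl48, so it cannot be given to Mrpl48 alone.

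Other genes of mitochondrial translation showed like binding. Of 48 gene records for proteins that act in it under other symbols, 47 had a filtered RARα peak within 10 kb (97.9%), 30 an RXRα region (62.5%) and 20 co-localized RARα and RXRα (41.7%). Each of these counts includes separate records of the same gene, Nsun4. All 17 mitochondrial tRNA synthetase genes, all 10 translation factor genes and all 6 ribosomal protein genes with other symbols, such as Dap3 and Chchd1, had a RARα peak, and 7, 5 and 3 of them were co-localized. Tfam, the packaging and transcription factor of mitochondrial DNA, had a co-localized RARα peak of 77 with its summit at 243 bp. Its highest RXRα region, 69.7 times input, lay elsewhere, at 4004 bp, with its highest bin over an input of 0. The gene without a filtered peak was Fastkd2, an RNA-binding protein of ribosome assembly, which had an RXRα region at 34.8 times input. Cytosolic ribosomal protein genes had higher RARα scores at the start (median 64 over 77 genes). Within 10 kb 45.8% of 83 were co-localized (35.5 to 56.5%), against 41.6% of members, and within 1 kb 20.5% were (13.2 to 30.4%), against 33.8%. Genes of the respiratory chain were co-localized within 10 kb at 53.2% of 94 (43.2 to 63.0%) and within 1 kb at 45.7% (36.0 to 55.8%), with a median RXRα ratio at the start of 4.03. These intervals overlap with those of the members.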

How the data were processed

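Per the paper's methods, Bowtie did the alignment, MACS the peak calling and Peak Analyzer the annotation, and the submitters' processing notes also name CASAVA 1.4. The deposited RXRα and input files hold the signal as whole-number coverage in 32 bp bins, where 1 read fills 5 bins. The deposited RARα list gives each peak's score and, in percent, its false discovery rate, which filtered nothing here. The file headers name mm9 while the paper's alignment methods name mm10, and 0 peaks lay past a chromosome end of NCBI37. Computed here were the RXRα regions (tracks scaled by 0.999912 to the same mean, bins joined within 200 bp, mean input 0.603 per bin), gene starts from GENCODE M1 without the mitochondrial chromosome, read ratios with exact conditional binomial intervals (input at least the genome mean), and Wilson and Newcombe intervals at 95%. Scaling puts exact ratios of 20 just under the threshold. The score over 20 and 10 kb follow the study's methods. Its 20-fold and 25% overlap of peak widths were adapted, to 32 bp bins and to the narrower interval. Named were, per subunit, the 6 members with the highest RARα score and the 6 with the highest RXRα bin, members without a peak, with 4 or more peaks, next to the threshold, sharing a start, or co-localized within 1 kb. The members and lists were chosen with earlier results of these data known. Alternatives changed these thresholds, the scaling, the input floor and the choice of start. The steps were tested on simulated data. Python 3.11.15, numpy 2.4.6, pandas 2.3.3, scipy 1.17.1, pysam 0.24.0 and matplotlib 3.10.9 were used.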

Additional observations from a re-analysis of the deposited data

How the results depend on the processing

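No paired analysis was possible because there was 1 library per antibody and no result came from a test. Of 148 recomputed values 113 stayed within 1.5 times the main count or within its interval. The order of the subunits in co-localized share held in each of these settings, though not among the 29 members with a partner, and it did not hold throughout for the other shares. For RXRα regions it turned at 10 times input (85.1% large, 86.7% small) and at 5 times (97.9% and 100%). For RARα peaks it turned with no score threshold (95.7% and 100%), without Mrps36-ps1 (93.6% and 96.6%) and over members with no other start within 1 kb (89.3% and 90%). With an overlap of 25% of the wider interval, chosen after seeing the data, 11 members were co-localized. With scores over 50, 40 members had a RARα peak. At 5, 10 and 30 times input, 76, 66 and 28 members had an RXRα region and 68, 54 and 19 were co-localized. Against the genome mean input alone these were 70 and 62. Over the 48 members with no other start within 1 kb, chosen after seeing the data, 43 had a RARα peak, 28 an RXRα region, and the difference of the subunits was 47.9 points. Over the other settings that difference ran from 2.70 points at 5 times input to 26.0 points with Mrps18a and Mrps30 in the large subunit. Without scaling, Mrpl55 and Mrps34 gained a region, with 20 over an input of 1 in both. Merging abutting peaks, leaving out Mrps36-ps1 and moving Mrps18a and Mrps30 were also chosen after seeing the data and moved none of these counts by over 1.5 times. RARα read depth is not in the peak list, though the paper gives more mapped reads for RARα than for RXRα. RARα was not measured against input here.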
